A study of Mus musculus with 6 samples.

Results

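The 9 serotonin receptor genes Htr1a, Htr1b, Htr1f, Htr2a, Htr2c, Htr3a, Htr4, Htr5b and Htr7 were followed across cell classes, clusters and libraries of mouse hippocampus. They were taken by name from the 26049 genes of the deposited count matrix, which holds 14 genes named Htr in all. RNA was measured in 28650 single nuclei from 6 libraries, each of 1 combination of injury, vector and side. All mice were male and carried the Tau P301S transgene (PS19), the controls included. PS19 is a model of tau pathology in which mutant human tau is driven by the mouse prion protein promoter. The libraries were sham with AAV-GFP (right), sham with AAV-VEGFC (right), TBI with AAV-GFP (right and left) and TBI with AAV-VEGFC (right and left). TBI here is a mild traumatic brain injury by controlled cortical impact on the right hemisphere. AAV is an adeno-associated virus, and VEGFC is a growth factor of lymphatic vessels. The labels give neither the age of the mice, nor how many entered a library, nor whether left and right libraries shared mice. No combination was repeated, so p-values measure only the spread between these 6 libraries. In the comparisons of conditions this spread is what a model leaves over, shared in part across genes, and not a spread between repeats of a combination.

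Serotonin reaches the hippocampus through axons of the raphe nuclei in the brainstem and acts on several receptor families. Receptors of the 1 family (here Htr1a, Htr1b and Htr1f) couple to Gi/o proteins and lower cyclic AMP. Htr2a and Htr2c couple to Gq and phospholipase C, Htr4 and Htr7 couple to Gs and raise cyclic AMP, and Htr3a is a subunit of a cation channel opened by serotonin. Htr5b belongs to the 5 family, whose coupling is less well described. In the brain Htr2c is long known from the epithelium of the choroid plexus, the tissue that secretes cerebrospinal fluid.

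Levels are given as CPM, the unique molecular identifiers (UMIs) of a gene per 1000000 UMIs summed over the nuclei of a class or cluster in a library. Libraries held 3676 to 6002 nuclei, 15358208 to 18379148 UMIs, and library medians of 2689 to 3703.5 UMIs in a nucleus. Of all nuclei, 182 carried a barcode that also occurred in another library. The 9 classes and 32 clusters are those of the authors. Means and the order of clusters are given among those with at least 20 nuclei in every library, and smaller clusters by their pooled level. Choroid plexus, fibroblast, microglia, oligodendrocyte, oligodendrocyte precursor (OPC) and astrocyte clusters each had their own marker list highest. Excitatory cluster 1 is CA1-like, clusters 2 and 3 are dentate granule-like and cluster 4 is CA3-like by their markers. Inhibitory clusters 5 and 7 had the striatal list highest, and excitatory cluster 7 had Dcn, a fibroblast gene, among its leading genes, so these are called by number only.

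Htr2c is the gene on which the account turns most, and its sequence is shown for the part of the message that is known to be recoded. Mouse Htr2c (ENSMUSG00000041380.13) lies on the plus strand of GRCm38 (mm10) at chrX:146962513-147197277, and 96.0% of it is intron. The coding stretch below is at chrX:147169662-147169721, plus strand, in exon 5 of 6 or exon 6 of 7 of the 2 annotated transcripts that hold it. Capitals mark the 5 adenosines known as sites of A-to-I editing, which start at codon 157 of the 1377-base coding sequence. Editing was not measured, since the files hold counts per gene.
Htr2c coding stretch: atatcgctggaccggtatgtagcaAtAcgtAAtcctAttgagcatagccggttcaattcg
The upstream windows of Htr2c and Htr2a are shown as those of the Gq-coupled pair, of which one was mainly in choroid plexus and the other in neurons. They come from the RefSeq promoter table for GRCm38.p6, in which 6 of the 9 receptors matched. The Htr2c window is chrX:146962263-146962512 (plus strand), and the Htr2a window is chr14:74640624-74640839 (plus strand), ending where the first exon starts. Capitals in the Htr2a window mark a GC box (GGGCGG, here on the opposite strand as CCGCCC).
Htr2c upstream: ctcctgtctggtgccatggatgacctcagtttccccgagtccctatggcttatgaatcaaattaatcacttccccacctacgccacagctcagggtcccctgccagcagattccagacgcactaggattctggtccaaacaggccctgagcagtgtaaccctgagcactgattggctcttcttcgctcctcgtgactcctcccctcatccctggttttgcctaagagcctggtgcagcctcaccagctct
Htr2a upstream: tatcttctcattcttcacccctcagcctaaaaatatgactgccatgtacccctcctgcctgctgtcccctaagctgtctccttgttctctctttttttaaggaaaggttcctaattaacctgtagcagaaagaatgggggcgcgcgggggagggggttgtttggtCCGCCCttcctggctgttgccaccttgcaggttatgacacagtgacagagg
Both strands of the 250-base windows were searched for TAATCC (an OTX-class homeobox core), TATAAA (the TATA box), GGGCGG (the GC box) and TGACGTCA (a cyclic AMP response element). The Htr2c window held none of them. The GC box was in 2 of the 6 receptor windows (Htr1a and Htr2a), against 32.7% of all 32851 windows, and the other 3 motifs were in none of the 6. TAATCC was in 6.25%, TATAAA in 12.4% and TGACGTCA in 1.55% of all windows. No motif overlapped another in these 6 windows, and a match or its lack says nothing about binding.

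The receptors fell into a choroid plexus gene, a gene of a few interneurons and 7 neuronal genes with different leading clusters. Htr2c had 48067 UMIs in all, of which 77.7% were in choroid plexus epithelium. Of the Htr3a UMIs, 81.2% were in inhibitory neurons. Excitatory neurons held 89.4% of Htr5b, 86.5% of Htr4, 76.4% of Htr1a, 67.0% of Htr1f and 57.6% of Htr1b UMIs. Such shares also depend on how many UMIs a class holds, so a larger share need not mean a higher level. Mean levels of Htr1b were 7.11 CPM in excitatory, 12.1 CPM in inhibitory and 12.6 CPM in mixed neurons. Htr1f had 129 CPM in excitatory and 164 CPM in inhibitory neurons as means of the GFP libraries, and 120 and 154 CPM with VEGFC. Htr1a and Htr5b were higher in excitatory than in inhibitory neurons. Htr7 UMIs were mainly in inhibitory neurons (59.6%), and Htr2a UMIs lay in excitatory (48.6%) and inhibitory neurons (44.3%). Across the 32 clusters, pairs of the 9 receptors had Pearson correlations of log2(CPM + 1) between -0.12 (Htr3a with Htr5b) and 0.69 (Htr1f with Htr2a), as a description over clusters that share libraries.

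**Figure D1:**
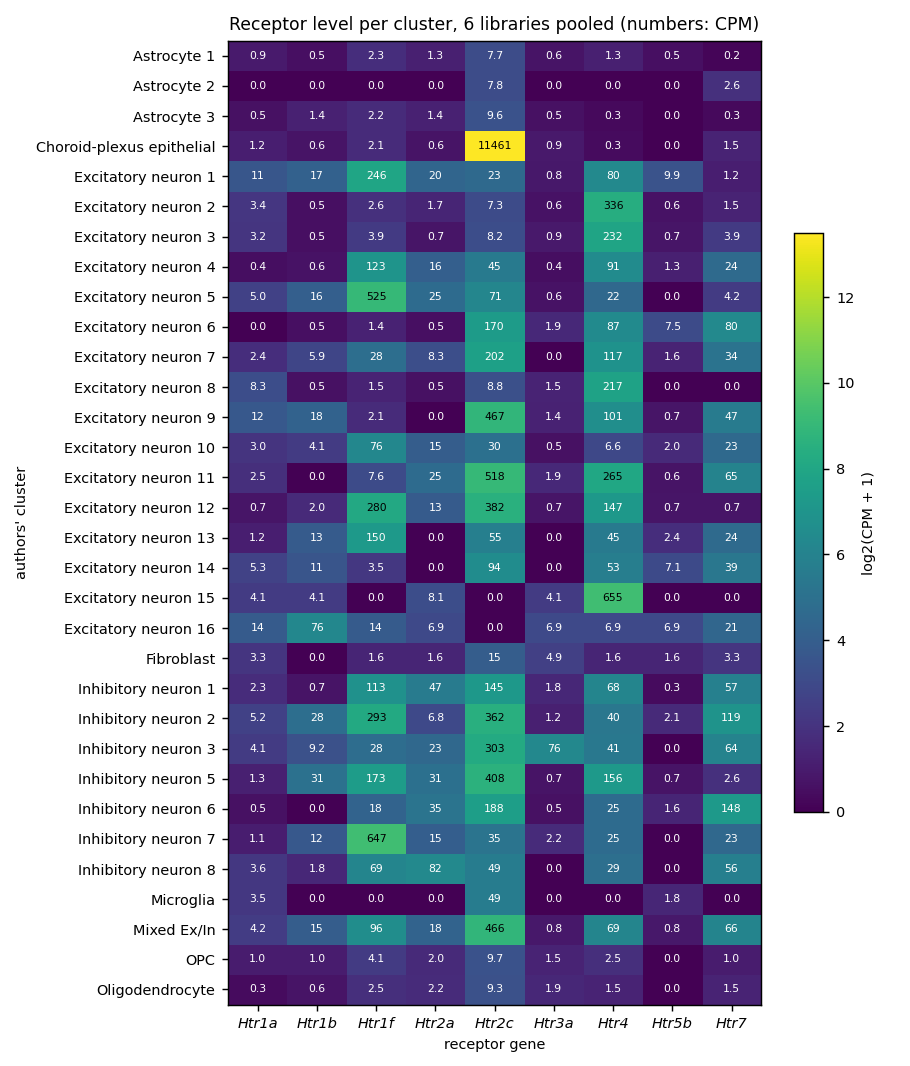
Level of each receptor (columns) in each of the 32 clusters (rows), with the 6 libraries pooled; colour is log2(CPM + 1) and the printed numbers are CPM. The Htr2c cell of choroid plexus epithelium stands at 11461 CPM, Htr3a reads 76 CPM in inhibitory cluster 3, and Htr4 is at 336 and 232 CPM in the dentate granule-like clusters 2 and 3.

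Levels of different genes were set out per length, since the 9 genes differ in span and in their share of intron. Counts from 3' chemistry need not grow with the length of a gene or of its exons, so these orders are descriptions. Htr1a has no intron and spans 4.48 kb, while Htr1f spans 181 kb with 98.6% intron. Per kb of gene, Htr2c had the most UMIs (204.7), followed by Htr1b (127.7), Htr1a (89.0), Htr1f (59.0) and Htr4 (58.2). Htr3a (31.3), Htr7 (25.4), Htr2a (18.9) and Htr5b (12.1) had fewer. Per kb of exon the order was Htr2c, Htr1f, Htr4, Htr7, Htr2a, Htr3a, Htr1b, Htr5b and Htr1a, so the places of Htr1a and Htr1b depend on the length used. In the leading cluster of each gene the mean level per kb of gene was 49.2 CPM for Htr2c, 6.42 CPM for Htr3a and 5.10 CPM for Htr1b. It was 0.534 CPM for Htr5b, the lowest of the 9.

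Htr1a encodes the inhibitory receptor that hyperpolarises pyramidal cells, and it lies at chr13:105443639-105448122. Its 399 UMIs gave 11.3 CPM ± 1.57 (SD, n = 6 libraries) in the CA1-like cluster 1, which held 42.9% of them. The libraries there ran from 9.63 through a median of 11.2 to 13.4 CPM. Excitatory cluster 9 followed with 10.9 CPM ± 10.0 (SD, n = 6), spread from 0 to 24.3 CPM, so the leading pair overlapped. A UMI of Htr1a was found in 5.89% of CA1-like nuclei (median 5112.5 UMIs per nucleus) and in 0.141% of astrocytes (median 1671 UMIs). With every nucleus thinned to 1000 UMIs these shares were 1.04% and 0.0703%. The CA3-like cluster 4 held 0.4 CPM of Htr1a with all libraries pooled, and the dentate granule-like clusters 2 and 3 held 3.4 and 3.2 CPM.

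Htr1b, an autoreceptor and heteroreceptor of axon terminals, lies at chr9:81628291-81633828, and the antisense gene D430036J16Rik overlaps 2.28 kb of it. Among the clusters with at least 20 nuclei in every library, inhibitory cluster 2 had the highest mean, 28.3 CPM ± 6.57 (SD, n = 6), with libraries from 16.2 through 28.7 to 34.9 CPM. Excitatory clusters 9, 5 and 1 followed with 17.9, 17.7 and 17.3 CPM, and each overlapped the next in this order. Of the clusters with fewer, inhibitory cluster 5 pooled to 31.3 CPM from 48 UMIs, above the 28.0 CPM of inhibitory cluster 2 pooled, and excitatory cluster 16 pooled to 75.7 CPM from 11 UMIs in 41 nuclei. Htr1b was found both in inhibitory cells and in CA1-like pyramidal cells, and pooled to at most 0.6 CPM in the dentate granule-like and CA3-like clusters. In the classes of glia, fibroblasts and choroid plexus it stayed at or below 1.02 CPM with all libraries pooled, and the astrocyte cluster 3 had 1.37 CPM from 5 UMIs.

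Htr1f, the receptor at which some migraine drugs act, lies at chr16:64924729-65105854. It was highest in inhibitory cluster 7 at 675 CPM ± 78.1 (SD, n = 6), with 698 and 760 CPM in the sham GFP and sham VEGFC libraries. The TBI libraries had 672 (GFP right), 550 (GFP left), 628 (VEGFC right) and 744 CPM (VEGFC left) there. Sham and TBI libraries overlapped, and so did this cluster with the next, excitatory cluster 5 at 509 CPM ± 55.8 (SD, n = 6). Below them came inhibitory cluster 2 at 299 CPM, with no library as high as the lowest of cluster 5. Excitatory cluster 12 (286 CPM) and the CA1-like cluster 1 (246 CPM) overlapped with their neighbours above. The CA1-like cluster alone held 34.6% of all Htr1f UMIs, and the dentate granule-like clusters 2 and 3 pooled to 2.6 and 3.9 CPM. A UMI was found in 74.1% of excitatory cluster 5 nuclei and 0.369% of astrocytes, at median depths of 3977 and 1671 UMIs. After thinning to 1000 UMIs the shares were 36.3% and 0.264%.

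Htr2a, the excitatory receptor at which classical psychedelics act, lies at chr14:74640840-74709494. Inhibitory cluster 1, with Lhx6 among its leading genes, had 46.8 CPM ± 6.55 (SD, n = 6), from 33.9 CPM in sham GFP to 51.6 CPM in TBI VEGFC left. Inhibitory cluster 6, which also has Lhx6 among its leading genes, had 35.4 CPM ± 12.3 (SD, n = 6) and overlapped it. Excitatory cluster 5 came next among the clusters with at least 20 nuclei in every library, at 27.9 CPM ± 18.7 (SD, n = 6) with a spread from 10.3 to 54.0 CPM. Inhibitory cluster 5, which has fewer in some, pooled to 30.6 CPM, against 25.2 CPM for excitatory cluster 5 pooled. The small inhibitory cluster 8 of 134 nuclei, with Ndnf and Reln among its leading genes, pooled to 81.6 CPM. In the order of classes, inhibitory neurons (30.0 CPM) overlapped with mixed neurons (19.0 CPM), which overlapped with excitatory neurons (11.0 CPM). A UMI was found in 17.7% of inhibitory cluster 1 nuclei and 0.228% of astrocytes, and in 5.55% and 0.193% after thinning.

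Htr2c stood at 11551 CPM ± 727 (SD, n = 6) in choroid plexus epithelium. The libraries had 10968 (sham GFP), 10774 (sham VEGFC), 11183 (TBI GFP right), 11899 (TBI VEGFC right), 11746 (TBI GFP left) and 12738 CPM (TBI VEGFC left). Both sham libraries lay below all 4 TBI libraries. No other class came near this level: the mixed neuron class, second in order at 481 CPM ± 49.1 (SD, n = 6), was 24-fold lower. Inhibitory neurons had 246 CPM ± 15.6 and excitatory neurons 71.5 CPM ± 17.8 (SD, n = 6 each), and no library of any of these 4 classes overlapped with another class of the 4. Of the 1294 choroid plexus nuclei 99.7% had an Htr2c UMI, and 1149 had at least 10. The median nucleus had 24 UMIs of Htr2c, which made up 1.03% of its UMIs, and the highest had 152. Library medians ran from 20 in sham VEGFC to 37 in TBI VEGFC left, beside median depths of 1958.5 and 3342 UMIs per choroid plexus nucleus. As a share of a nucleus' UMIs the same medians were 0.962% and 1.16%.

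In neurons, Htr2c varied more between clusters than between libraries. After the mixed neurons came excitatory cluster 9 at 460 CPM ± 64.2 (SD, n = 6), inhibitory cluster 2 at 371 CPM and excitatory cluster 12 at 366 CPM, each overlapping the next. Inhibitory cluster 3, with Vip among its leading genes, had 304 CPM ± 41.8 (SD, n = 6). Smaller clusters were as high, with excitatory cluster 11 at 518 CPM and inhibitory cluster 5 at 408 CPM pooled. The dentate granule-like clusters 2 and 3 were low, at 7.3 and 8.2 CPM pooled, which is near the 8.4 CPM of astrocytes and 9.3 CPM of oligodendrocytes. The 28 Htr2c UMIs of microglia included 16 from a single nucleus, without which the pooled level fell from 49.5 to 21.6 CPM. In neurons 42 excitatory, 88 inhibitory and 38 mixed nuclei held 10 or more Htr2c UMIs, and no astrocyte, OPC or oligodendrocyte did.

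Htr2c was also set against Ttr and Enpp2, which the same epithelium makes in large amounts. Ttr stood at 8349 to 11052 CPM and Enpp2 at 7939 to 8940 CPM in the choroid plexus of the libraries, and at 304 to 715 and 38.5 to 57.3 CPM in astrocytes. Enpp2 was higher than that in oligodendrocytes (1546 to 1690 CPM), OPC (397 to 435 CPM) and fibroblasts (153 to 529 CPM). These genes therefore did not keep 1 ratio to each other between classes, and the part of free RNA in the values below was not tested. In choroid plexus the median library had 1.22 Htr2c UMIs per Ttr UMI (0.975 to 1.31). In glia and fibroblasts the medians were 0.0134 to 0.0222, although their Ttr levels were 304 to 1445 CPM. In inhibitory neurons the median was 1.27 (0.740 to 1.94), and in mixed neurons 2.45 (1.61 to 3.54), above the range in choroid plexus. Against Enpp2, the ratio over that of choroid plexus was 4.01 in inhibitory, 11.5 in mixed and 1.82 in excitatory neurons. Excitatory neurons had 0.284 of the choroid plexus ratio against Ttr, so for this class the denominators gave opposite directions.

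**Figure D2:**
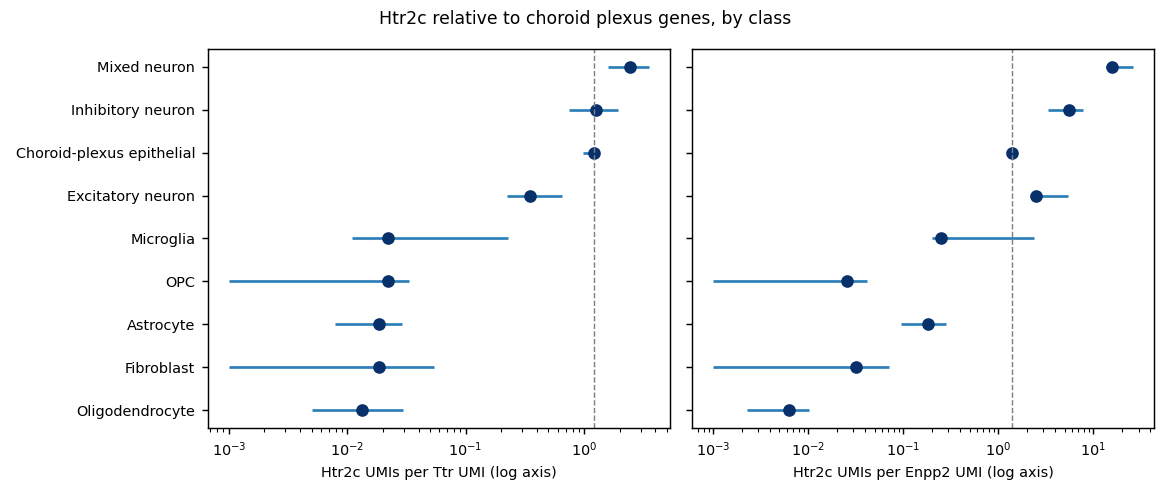
Htr2c UMIs per Ttr UMI (left) and per Enpp2 UMI (right) in each class, on log axes; points are medians and lines the range over libraries (6, or 5 for Enpp2 in microglia), a lowest value of 0 is drawn at 0.001, and the dashed line is the choroid plexus median. Mixed neurons lie right of the dashed line in both panels, and astrocytes, OPC, fibroblasts and oligodendrocytes lie left of it in both. In the right panel OPC, fibroblasts and oligodendrocytes have more Enpp2 (153 CPM or more in each library) than astrocytes (57.3 CPM or less).

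Htr3a, the subunit that a homomeric serotonin-gated channel requires, lies at chr9:48899213-48911099, with the antisense gene Gm32335 over 6.77 kb of it. Of its 372 UMIs, 281 were in inhibitory cluster 3. That cluster had 62.2 (sham GFP), 119 (sham VEGFC), 77.7 (TBI GFP right), 64.5 (TBI VEGFC right), 86.1 (TBI GFP left) and 48.6 CPM (TBI VEGFC left). The lowest of them was above every other cluster's highest library among the 23 classes and clusters with at least 20 nuclei in each library. Fibroblasts came next at 8.76 CPM ± 10.6 (SD, n = 6), from 3 UMIs. A UMI was found in 24.97% of inhibitory cluster 3 nuclei (median 4074 UMIs) and 0.370% of excitatory neurons (median 4222.5 UMIs). After thinning these shares were 7.96% and 0.113%. Htr3b, whose product joins Htr3a in the channel, had 10 UMIs in all.

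Htr3a is known as a mark of interneurons from the caudal ganglionic eminence, so 9 interneuron genes were compared between inhibitory nuclei with and without an Htr3a UMI. Of 4382 inhibitory nuclei 226 had one, and 86.4% to 100% of these per library were in cluster 3. That cluster was made from these same counts and has Vip, Htr3a, Adarb2 and Cnr1 among its leading genes. The comparison therefore largely sets cluster 3 nuclei against other inhibitory nuclei, and its p-values are not independent of the clustering. Vip, a peptide of disinhibitory interneurons, stood at 378 to 548 CPM in nuclei with Htr3a and 47.4 to 98.1 CPM in those without. The mean log2 difference was 2.77 (SD 0.59, n = 6), higher in 6 of 6 libraries (exact permutation p = 0.03125 by two-sided sign flips, which is the lowest possible with 6 libraries, and 0.0352 adjusted over the 9 genes). Cck (1.20), Cnr1 (2.20) and Adarb2 (2.505) were also higher in every library on the log2 scale. Sst, a peptide of interneurons from the medial eminence, was lower by a log2 difference of -1.88 in every library. Lhx6 ran from 0 to 7.40 CPM with Htr3a and from 25.6 to 46.7 CPM without, and Pvalb from 0 to 9.13 and from 8.45 to 23.1 CPM. Lamp5, from 8 UMIs, was at 4.56 to 11.2 CPM against 30.3 to 47.0 CPM. All 8 of these genes had the exact p of 0.03125 and adjusted 0.0352. Reln differed by 0.02 (exact p = 0.969). The median nucleus with Htr3a had 3426 to 6195 UMIs by library, against 3398 to 5923 without.

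Inside inhibitory cluster 3 alone, which was examined after the first result had been seen, none of these differences passed the threshold. There 207 of 829 nuclei had an Htr3a UMI, and the log2 differences were 0.25 for Vip, -0.059 for Cck, 0.042 for Cnr1 and 0.11 for Adarb2. The lowest adjusted exact permutation p was 0.375. With 6 libraries an exact p cannot go below 0.03125. After adjustment over the genes, most of them would have to reach that value together for any to pass. The threshold therefore cannot show a lack of difference within this cluster.

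**Figure D3:**
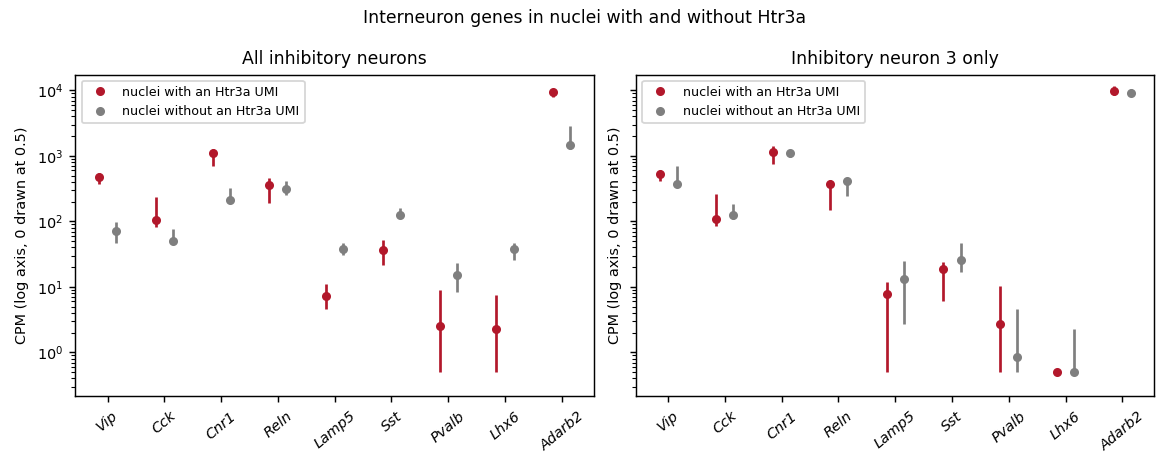
Levels (CPM, log axis, 0 drawn at 0.5) of 9 interneuron genes in inhibitory nuclei with an Htr3a UMI (red) and without (grey); points are medians and lines the range over 6 libraries. In all inhibitory neurons (left) Vip, Cck, Cnr1 and Adarb2 are higher with Htr3a, and within inhibitory cluster 3 (right) the ranges of all 9 genes overlap.

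Htr4, a Gs-coupled receptor studied for memory and mood, is a gene of 172 kb on chromosome 18. The dentate granule-like cluster 2 led with 336 CPM ± 17.1 (SD, n = 6). Its libraries had 337 and 348 CPM in sham GFP and sham VEGFC, 341 and 346 CPM in TBI GFP right and left, and 302 and 341 CPM in TBI VEGFC right and left. The lowest of these was above every library of the next cluster, the dentate granule-like cluster 3, at 234 CPM ± 15.8 (SD, n = 6). Excitatory cluster 8, which had the dentate list highest, followed with 216 CPM ± 22.5 and overlapped cluster 3. In these 3 clusters Htr1f, Htr2a, Htr2c and Htr7 pooled to at most 8.8 CPM each. Of the clusters with fewer nuclei, excitatory cluster 15 (55 nuclei), which also had the dentate list highest, pooled to 655 CPM. Cluster 11, which had the CA3 list highest, pooled to 265 CPM. A UMI of Htr4 was found in 58.9% of cluster 2 nuclei and 0.158% of astrocytes, and in 26.8% and 0.123% after thinning.

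Htr7, a Gs-coupled receptor linked to circadian timing, lies at chr19:35958734-36057507. Inhibitory cluster 6 led with 129 and 137 CPM in the sham libraries (GFP, VEGFC), 145 and 188 CPM in TBI GFP (right, left) and 165 and 128 CPM in TBI VEGFC (right, left). Its mean of 149 CPM ± 23.6 (SD, n = 6) overlapped inhibitory cluster 2 at 125 CPM ± 23.7. Excitatory cluster 6 came after at 80.5 CPM ± 9.38 (SD, n = 6), with no overlap with inhibitory cluster 2. In the classes, inhibitory (77.1 CPM) and mixed neurons (68.3 CPM) overlapped, and excitatory neurons (13.2 CPM) lay below both without overlap. A UMI was found in 46.3% of inhibitory cluster 6 nuclei and 0.0527% of astrocytes, and in 15.2% and 0.0351% after thinning.

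Htr5b lies at chr1:121509842-121528465 and is known to be intact in mouse and disrupted in human. Its 226 UMIs were the fewest of the 9, and the CA1-like cluster 1 held 65.5% of them at 9.95 CPM ± 1.97 (SD, n = 6). The libraries ran from 7.83 through 9.69 to 12.7 CPM. Excitatory cluster 6 had 7.58 CPM ± 3.77 (SD, n = 6) and overlapped it. A UMI was found in 4.92% of CA1-like nuclei and 0.0527% of astrocytes. In choroid plexus, OPC and oligodendrocytes no Htr5b UMI was found, which at 3 UMIs per library allows up to 4.06 to 10.2 CPM in a library.

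**Figure D4:**
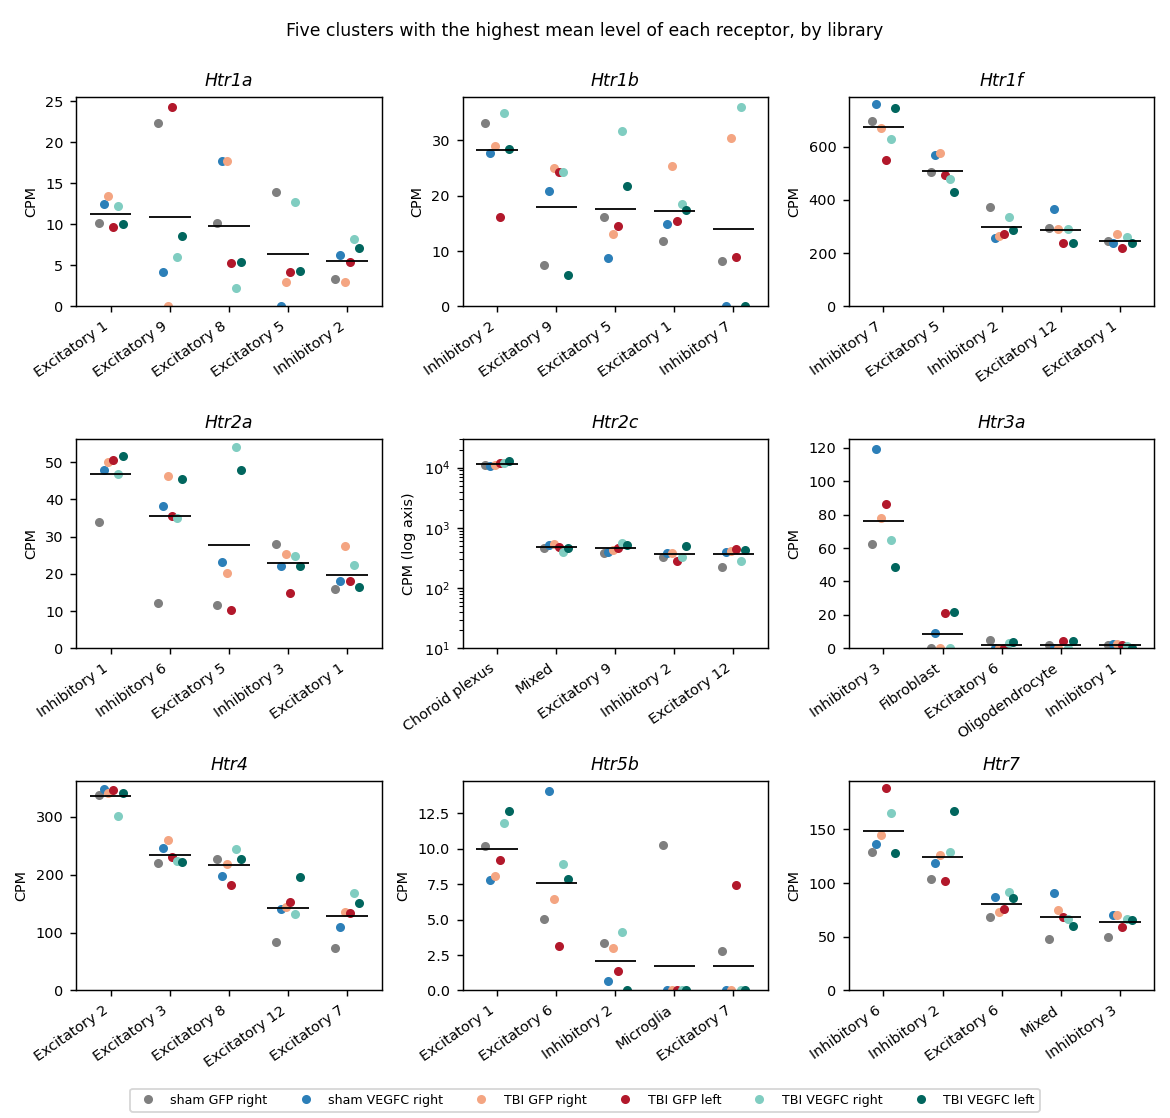
Level (CPM, vertical axis, log for Htr2c) of each receptor in its leading 5 clusters by mean, among those with at least 20 nuclei in every library; each point is 1 library and the black line the mean of 6. Htr3a in inhibitory cluster 3, Htr4 in excitatory cluster 2 and Htr2c in choroid plexus stand clear of the next cluster, and Htr1a, Htr1b, Htr2a and Htr5b overlap with theirs.

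Most neurons carried RNA of at least 1 of the 9 receptors. The share of nuclei with any receptor UMI was 67.4% in excitatory, 72.5% in inhibitory and 75.6% in mixed neurons, at median depths of 4222.5, 4134.5 and 4298 UMIs. It was 2.57% to 4.61% in astrocytes, oligodendrocytes, OPC, microglia and fibroblasts, at median depths of 1260.5 to 1805 UMIs. After thinning to 1000 UMIs the neuronal shares were 28.8%, 39.0% and 44.0%, and those of the other 5 classes 1.69% to 2.67%. UMIs of 2 or more receptors were in 33.4% of inhibitory and 20.4% of excitatory nuclei. The highest such share was 63.9%, in excitatory cluster 11, whose median depth was 5386.5 UMIs, and the most receptors in a nucleus was 5.

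The genes whose cluster pattern was most like that of each receptor were taken by Pearson correlation of log2(CPM + 1) over 32 clusters, among 12087 genes. Clusters share libraries and depth, so these values are descriptions. Slc7a14, Cnnm1 and Nsf were closest to Htr4 (r = 0.90, 0.89 and 0.89). Rpgrip1l, Ankrd42 and Mdm1 were closest to Htr2c (0.84, 0.79 and 0.79), and all 3 were themselves highest in choroid plexus. Vip (0.81), Grpr (0.68) and Yjefn3 (0.60) were closest to Htr3a, with their highest levels in inhibitory cluster 3. Among the others, the leading genes were Mei4 for Htr1b (0.84), Frmpd3 for Htr7 (0.82), Hrh3 for Htr1f (0.80), Grip1os2 for Htr2a (0.75) and Entr1 for Htr1a (0.65). Small clusters entered these correlations too, and Mei4 was highest (309 CPM) in excitatory cluster 16, which has 41 nuclei.

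The design asks whether AAV-VEGFC, the injury and the side of the brain changed these levels. All 9 receptors passed the filter on low counts in at least 1 of 5 classes, and the resulting 25 pairs of receptor and class were tested by edgeR's quasi-likelihood test and Benjamini-Hochberg adjustment over all genes of the class. No pair passed an adjusted p of 0.05 for AAV-VEGFC against AAV-GFP (0.0281% of all gene and class pairs did) or for TBI right against sham right (0.0782%). Neither did any for TBI left against TBI right (0.0342%) or for the vector effect after TBI against that after sham (0.198%). At an unadjusted p under 0.05 there were 1, 2, 4 and 3 pairs of the 25 (4%, 8%, 16% and 12%, against 5.40%, 5.03%, 3.50% and 7.36% of all gene and class pairs), and DESeq2 and limma-voom called 0 in each comparison. The median log2 fold over the 25 pairs was 0.12, 0.00, -0.01 and -0.03, and medians over all genes of a class lay between -0.01 and 0.02. The TBI right libraries enter the second and the third comparison alike.

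Htr2c in choroid plexus differed by a log2 fold of 0.10 (SE 0.08) between TBI right and sham right, higher in both vectors, with an adjusted p of 0.964 from edgeR. For the vector the log2 fold was 0.06 (SE 0.07, adjusted p = 0.992), higher in 2 of 3 contexts. The smallest adjusted p for a vector effect in the classes was 0.739, for Htr4 in excitatory neurons, at a log2 fold of 0.19 (SE 0.07). Its levels there were 135 and 149 CPM in sham GFP and VEGFC, 134 and 157 CPM in TBI right, and 162 and 174 CPM in TBI left, so VEGFC was higher in 3 of 3 contexts. In the dentate granule-like cluster 2, VEGFC was higher in sham only. The dentate granule-like cluster 3 had 256 of 2091 excitatory nuclei in TBI GFP right and 407 of 1840 in TBI VEGFC right. For GFP and VEGFC it had 283 of 1831 and 392 of 2812 in sham, and 452 of 2339 and 262 of 1515 in TBI left. The part of cluster shares in this Htr4 level was not tested. The inhibitory class mixes clusters with different receptors, and their shares varied between libraries. Inhibitory cluster 2 made up 11.2% to 34.3% of its nuclei and cluster 5 made up 0.487% to 20.9%, and the part of these shares in class levels was not tested.

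In clusters, 56 pairs of receptor and cluster were tested over 16 clusters. For AAV-VEGFC against AAV-GFP none was called (0.0226% of all pairs of gene and cluster were), and 6 (10.7%) had an unadjusted p under 0.05, against 5.44% of all. For TBI right against sham right none was called (0.0514%), and 5 (8.93%) had such a p, against 5.09% of all. DESeq2 and limma-voom called 0 in these comparisons too. The median log2 fold over the 56 pairs was 0.12 for the vector and 0.10 for TBI right against sham right. Calls were made for 1 pair between TBI left and TBI right (0.0411%) and 1 pair in the difference of vector effects (0.236%), with median log2 folds over the 56 pairs of 0.03 and -0.05. In these 2 comparisons 5 pairs (8.93%, against 3.93% of all) and 11 pairs (19.6%, against 7.10% of all) had an unadjusted p under 0.05.

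The first was Htr4 in excitatory cluster 9, a cluster with Rxfp1, Tshz2 and Slc17a6 among its leading genes. Its levels were 37.4 CPM in TBI GFP right and 100 CPM in TBI GFP left, 78.8 CPM in TBI VEGFC right and 206 CPM in TBI VEGFC left, and 29.8 and 50.2 CPM in the sham libraries. Both left libraries were above both right ones. The log2 fold of left over right was 1.40 (SE 0.33, edgeR adjusted p = 0.0316), higher in 2 of 2 vectors. It rests on 6, 37, 13 and 72 UMIs in 46, 112, 47 and 88 nuclei. The left libraries held more nuclei of this cluster than the right TBI libraries, and the part of this in the result was not tested. Of 4718 genes tested in this cluster, 25 were called higher and 33 lower on the left, out of 60 calls over all clusters. Htr4 was thus 1 of many genes called there. In the same cluster Htr2c differed by 0.02 (SE 0.18, adjusted p = 0.990) and Htr7 by 0.74 (SE 0.53, adjusted p = 0.724). The Htr4 call was lost without either of the left libraries, without either TBI right library, with doublet scores up to 0.05 and with DESeq2 or limma-voom, at log2 folds of 1.17 to 1.45.

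The second was Htr1f in excitatory cluster 7, the cluster with Dcn among its leading genes. The level was 46.8 CPM in sham GFP and 10.1 CPM in sham VEGFC, 14.7 and 11.1 CPM in TBI GFP (right, left), and 35.6 and 36.8 CPM in TBI VEGFC (right, left). After TBI both VEGFC libraries were above both GFP libraries, and in sham the VEGFC library was the lower. The difference of the vector effects was 3.75 on the log2 scale (SE 0.83, edgeR adjusted p = 0.0158). The counts were 34, 5, 6, 3, 4 and 19 UMIs, in 135, 126, 76, 56, 22 and 74 nuclei, and sham has 1 library per vector. This fit took the left and right TBI libraries of a vector as replicates, so its spread is that between the sides. Of 8291 genes tested in this cluster, 56 were called with a higher and 17 with a lower difference of vector effects. In sham GFP 23.5% of the Htr1f UMIs came from 1 nucleus. Without TBI GFP right, TBI GFP left or TBI VEGFC left, or with limma-voom, the call was lost at log2 values of 3.58 to 4.01. DESeq2 gave no adjusted p for it, and under the doublet limit it was not tested.

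Other differences in clusters were large without passing the threshold. Htr2c in inhibitory cluster 1 had 147 and 93.1 CPM in sham GFP and VEGFC, 59.97 and 214 CPM in TBI right, and 154 and 221 CPM in TBI left. The difference of its vector effects was 1.73 on the log2 scale (SE 0.39, edgeR adjusted p = 0.128). It was called with library totals, without the filter on low counts and with any 1 of the 4 TBI libraries left out, at 1.20 to 2.54. Htr2a in excitatory cluster 5 had 11.6 and 23.1 CPM in sham GFP and VEGFC, 20.2 and 54.0 CPM in TBI right, and 10.3 and 47.9 CPM in TBI left. All 3 VEGFC libraries were above all 3 GFP libraries, at a log2 fold of 1.56 (SE 0.35, edgeR adjusted p = 0.215). Htr3a in inhibitory cluster 3 was higher with VEGFC in sham and lower after TBI, with a difference of -1.48 (SE 0.38, adjusted p = 0.540).

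**Figure D5:**
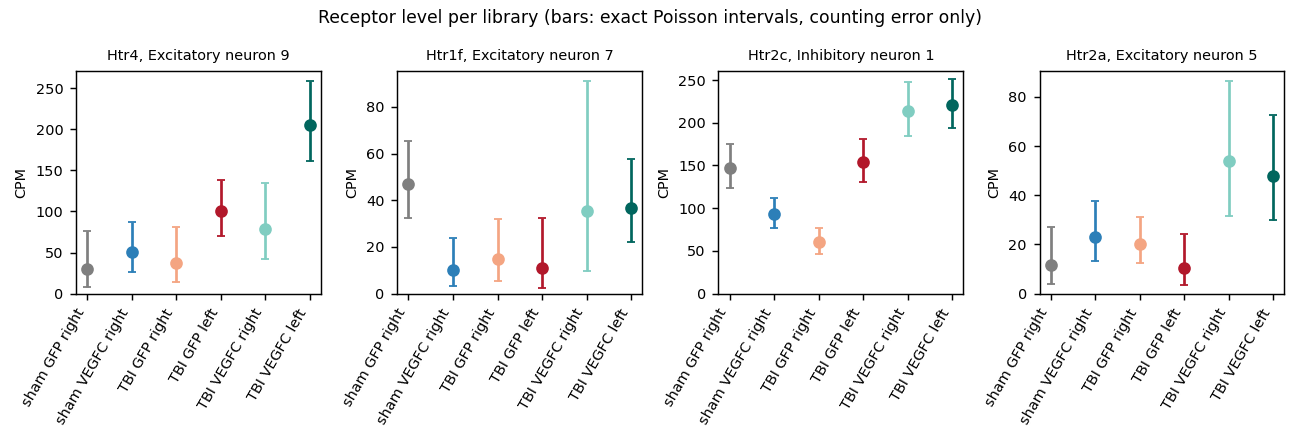
Receptor level (CPM) in each of the 6 libraries for 4 pairs of receptor and cluster; bars are exact Poisson 95% intervals, which cover counting error only. Htr4 in excitatory cluster 9 is highest in TBI VEGFC left at 206 CPM, Htr1f in excitatory cluster 7 runs from 10.1 to 46.8 CPM, and the VEGFC libraries of Htr2a in excitatory cluster 5 are all above the GFP ones.

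Genes around the receptors were read from 4 lists. Of the 5 other Htr genes, Htr2b had 1614 UMIs at a nearly flat 14.8 to 21.4 CPM in all 9 classes pooled, and the whole of it lies opposite Psmd1. Htr1d (65 UMIs), Htr5a (246 UMIs) and Htr6 (157 UMIs) were sparse. No gene of this list, and none of the serotonin synthesis, uptake and breakdown list (11 of 12 genes in the matrix, 7 tested in classes), was called in any class or cluster. Among 24 G proteins and effectors and 14 receptor regulators and editing enzymes, 3 calls were made, all higher. Each comparison tested 146 and 77 pairs of gene and class and 318 and 176 pairs of gene and cluster of these lists. The shares called over all genes were 0.198% for the difference of vector effects in classes, 0.236% for it in clusters and 0.0514% for TBI right against sham right in clusters. For the difference of vector effects, mixed neurons had 63 higher and 39 lower calls of 9595 genes, and excitatory cluster 12 had 18 and 19 of 5461. For TBI right against sham right, inhibitory cluster 6 had 2 higher and 0 lower calls of 6483 genes. Itpr1, the calcium channel opened by Gq signalling, differed in its vector effects in mixed neurons by 1.55 (SE 0.36, adjusted p = 0.0293). Its CPM was 177 and 93.9 in sham GFP and VEGFC, 99.7 and 159 in TBI right, and 113 and 164 in TBI left. Plcb4, a phospholipase C, differed likewise in excitatory cluster 12, by 1.90 (SE 0.37, adjusted p = 0.000231). Adarb2, a relative of the editing enzymes, was higher in TBI right than in sham right in inhibitory cluster 6, at 735 and 699 CPM against 323 and 404 CPM. Its log2 fold was 1.03 (SE 0.16, adjusted p = 0.0074). With doublet scores up to 0.05 the calls of Itpr1 and Plcb4 were lost, and the sign of Itpr1 turned to a log2 difference of -0.98. With DESeq2 those of Plcb4 and Adarb2 were lost, and Itpr1 had no adjusted p. Itpr1 was also lost without TBI VEGFC right, and Adarb2 without sham GFP or TBI GFP right.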

How the data were processed

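Nuclei from microdissected, frozen hippocampi were sequenced with 10x Genomics 3' v3.1 chemistry, per the labels' protocols. Cell Ranger 7.0.1, Scanpy and mm10 are named in the submitters' processing notes. The deposited values are UMI counts per gene and nucleus, with the authors' classes and clusters, per the file headers, and all were whole numbers. In 26823 of the 28650 nuclei their sum equalled the authors' total count, and in the others it did not. The authors also deposited the percent of mitochondrial counts and a doublet score per nucleus, which end at 0.999% and 0.0990. No doublet caller was run for that reason, and no nucleus has under 1001 UMIs.

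Counts were summed per library and class, or per cluster with at least 20 nuclei in each library. After filterByExpr and TMM, edgeR 4.0.16 (R 4.3.3) tested them by quasi-likelihood in an additive model of vector and of context (sham, injured right side, left side after TBI), with 2 residual degrees of freedom. In these tests edgeR moderated the spread of each gene towards that of all tested genes. The median prior degrees of freedom of the additive model ran from 7.46 in inhibitory neurons to infinite in choroid plexus. The difference of vector effects took left and right TBI libraries as replicates. P-values were adjusted (Benjamini-Hochberg) within unit and comparison at 0.05, and each SE is the absolute log2 fold over the square root of F. The vector test of the additive model was checked on simulated counts of excitatory neurons and choroid plexus. That check covered no other comparison, no neuron cluster and no change as small as the vector folds given for classes. Its outcome is not reported here. Alternatives were RLE factors, library totals, no filter, DESeq2 1.42.0, limma-voom (3.58.1), doublet scores up to 0.05, at least 2000 UMIs, other designs and each library left out. Shares were also computed after thinning nuclei to 1000 UMIs, and Poisson intervals (95%) cover counting error only. Positions are from GENCODE M21, and the coding stretch is from its transcripts.

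The members and the lists were chosen with earlier results of these data known. Named genes are the 9 receptors, list members past the threshold and the 3 genes most correlated with each receptor among those with at least 20 CPM in a cluster. Only the leading gene is named for 5 receptors, and that of Htr5b is not reported here.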

Additional observations from a re-analysis of the deposited data

Results flagged for a closer look

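The vector effect on Htr1f in excitatory cluster 7 differed between TBI and sham by 3.75 on the log2 scale, and this test of the difference between contexts is why it is listed here. VEGFC libraries had 35.6 and 36.8 CPM against 14.7 and 11.1 CPM with GFP after TBI, and 10.1 against 46.8 CPM in sham. The sham side of the difference rests on 1 library per vector, and 4 of the 6 libraries had 6 or fewer UMIs of the gene. On the TBI side the left and right libraries were taken as replicates.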

How the results depend on the processing

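No paired analysis was possible because the 6 libraries carry 6 different replicate numbers, so that no groups share a number. In classes, every alternative gave 0 receptor calls except that, without a filter on low counts, 1 was made between TBI left and right, and leaving out a library gave 0 to 1 in each of the 4 comparisons. In clusters, the vector comparison had 1 call without the filter and 0 to 4 with a library left out (4 without either sham library), and TBI right against sham right had 0 to 2. The call between TBI left and right went to 0 with DESeq2, doublet scores up to 0.05 and limma-voom, and to 0 to 1 with a library left out, where without TBI VEGFC right the call was Htr2c in inhibitory cluster 1. The difference of vector effects had 0 calls with DESeq2, the doublet limit and limma-voom, 3 with library totals, 2 without the filter and 1 to 2 with a library left out. Without TBI GFP right or TBI VEGFC left the call was Htr2c in inhibitory cluster 1 and not Htr1f in excitatory cluster 7. Without TBI GFP left it was that Htr2c pair and Htr2c in excitatory cluster 4. For Htr4 in excitatory cluster 9 the adjusted p was 0.0655 with limma-voom, and for Htr1f in excitatory cluster 7 it was 0.0516. Enpp2 in place of Ttr moved the Htr2c ratio over choroid plexus to 4.01 in inhibitory, 1.82 in excitatory and 11.5 in mixed neurons, from 1.04, 0.284 and 2.01. With doublet scores up to 0.05, Htr1b in inhibitory cluster 2 was at 21.1 CPM. For Htr3a, the differences within inhibitory cluster 3 were 0.25 (Vip), -0.059 (Cck), 0.042 (Cnr1), 0.11 (Adarb2), -0.61 (Sst) and -0.34 (Reln). This setting was added after seeing the data. Over all inhibitory nuclei and with a library left out, the differences were 2.62 to 2.92 (Vip), 0.97 to 1.32 (Cck), 2.11 to 2.32 (Cnr1), 2.42 to 2.64 (Adarb2) and -2.02 to -1.73 (Sst), where 5 libraries cannot go below an exact p of 0.0625. Reln ran from -0.12 to 0.12 and was -0.01 without TBI GFP right or TBI VEGFC right. The causes of these changes were not tested, other than fewer libraries in the exact test. Depth limits Htr1a, Htr3a and Htr5b most, with 226 to 399 UMIs each over all libraries.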

Other observations

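Genes that make and clear serotonin had their own places. Tph2 and Tph1, the hydroxylases that begin serotonin synthesis, had 72 and 8 UMIs in all 28650 nuclei, and the serotonin transporter Slc6a4 had 14. Maob, which breaks down monoamines, pooled to 122 CPM in choroid plexus against 12.6 CPM over all nuclei. Slc29a4, a low-affinity monoamine transporter, and Aldh2, which acts after the monoamine oxidases, were also highest there, at 85.4 and 61.4 CPM. Maoa was highest in astrocytes (42.1 CPM) and Ddc, the decarboxylase of the pathway, in oligodendrocytes (54.3 CPM). Of the effectors, Itpr1 was highest in choroid plexus at 1357 CPM, against 252 CPM over all nuclei.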
